A study of Homo sapiens with 6 samples.

Results

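The 9 genes described here are markers of the luminal type of breast cancer, namely the hormone receptors ESR1 and PGR, the estrogen response gene GREB1, the transcription factors FOXA1, GATA3, SPDEF and ELF3, and the trefoil peptides TFF1 and TFF3. They were chosen by symbol, and each matched 1 of the 57445 gene identifiers in the deposited table. Their expression was followed in MDA-MB-231, an established triple-negative, basal-like breast cancer cell line that carries neither estrogen nor progesterone receptor as a clinical marker. The cells were grown in RPMI-1640 with fetal calf serum, transduced with a lentiviral pGIPZ vector and kept under puromycin. One condition carried a non-silencing control shRNA (shCTL, 3 libraries), which the sample labels call an empty vector, and the other carried an shRNA against Ror1 (shRor1, 3 libraries). Both conditions thus shared the vector backbone and the selection. The header of the shCTL columns also holds the word DMSO, and whether those cells received this solvent is not stated. The libraries of a condition are called the first, the second and the third here by the order of their columns, which carry no replicate label and tie no library of one condition to a library of the other, and no source states that they came from separate cultures, so the p-values measure only the spread between these libraries.

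In luminal cells the estrogen receptor binds DNA as a ligand-activated transcription factor. FOXA1 opens chromatin for it, GATA3 acts with both, and PGR, GREB1 and TFF1 are among its classical targets. SPDEF and ELF3 are epithelium-specific ETS factors, of which SPDEF is best known from mucus-secreting goblet cells. The trefoil peptides are small, disulfide-rich proteins that such cells secrete together with mucins.

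Values are given in TPM, the transcripts of a gene out of 1000000 transcripts of its library after correction for gene length, so that levels can be compared between genes. Between 16036 and 17033 identifiers reached 1 TPM in a library. This unit keeps no read depth, so an interval for counting error was not computed. Genes that reached 1 TPM in 3 or more libraries (16554) were compared by limma on log2(TPM + 1), with Benjamini-Hochberg adjusted p-values, and SE stands for the standard error of a log2 fold change on that scale (shRor1 over shCTL). Of the 9 luminal genes 7 were among them, while ESR1 and PGR fell below this limit. ROR1, the target of the shRNA, had 15.42, 13.49 and 20.56 TPM in shCTL and 9.34, 11.93 and 14.85 TPM in shRor1, so that the conditions overlapped. The line kept its mesenchymal marker vimentin (VIM), which had a mean of 2629 TPM over the 6 libraries, and the basal keratins KRT5, KRT14 and KRT17 were at most 0.2 TPM in each library. Leukocyte, endothelial, stromal, adipose and liver markers (12 of 13 in the table) summed to 11.95 to 20.3 TPM in shCTL and 11.5 to 18.6 TPM in shRor1, led by COL1A1, with PTPRC at most 0.39 TPM and LUM listed at 0 in every library.

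Of the promoter sequences of the luminal genes, those of SPDEF, ELF3 and FOXA1 are shown, because SPDEF and ELF3 varied together across the libraries described below while FOXA1 hardly varied, and because each of the 3 has a single listed start. The sequences are the 250 bases before the transcription start in RefSeq on build GRCh38.p14, which differs from the build of the deposited values. Capitals mark matches, searched on both strands, to a forkhead word or a TATA box. The forkhead word was TGTTTAC, with the allowed variants TATTTAC and, likewise on both strands, TGTTTGC. The TATA box was searched with the word TATAAA. RefSeq windows were found for 6 of the 9 genes, and those of TFF1, TFF3 and GREB1 were not used here.
SPDEF, chr6:34556330-34556579, minus strand: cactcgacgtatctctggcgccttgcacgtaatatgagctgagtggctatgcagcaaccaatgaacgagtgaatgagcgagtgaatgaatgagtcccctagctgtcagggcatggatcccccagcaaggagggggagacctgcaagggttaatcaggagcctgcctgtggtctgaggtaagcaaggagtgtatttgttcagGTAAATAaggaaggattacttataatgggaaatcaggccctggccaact
ELF3, chr1:202010337-202010586, plus strand: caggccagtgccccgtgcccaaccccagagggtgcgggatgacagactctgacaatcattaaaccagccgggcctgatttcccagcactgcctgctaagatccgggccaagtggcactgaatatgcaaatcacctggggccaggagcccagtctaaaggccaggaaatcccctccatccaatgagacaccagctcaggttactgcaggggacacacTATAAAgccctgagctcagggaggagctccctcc
FOXA1, chr14:37595250-37595499, minus strand: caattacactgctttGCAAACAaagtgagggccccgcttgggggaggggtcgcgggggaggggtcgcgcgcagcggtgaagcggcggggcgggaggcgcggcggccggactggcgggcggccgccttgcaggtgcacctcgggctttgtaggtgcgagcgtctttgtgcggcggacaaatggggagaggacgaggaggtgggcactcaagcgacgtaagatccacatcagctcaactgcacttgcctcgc

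The SPDEF window held 1 forkhead word, 49 to 43 bases before the start, directly followed by the ETS word AGGAAG at 42 to 37 bases. The FOXA1 window held 1 forkhead word at 235 to 229 bases before the start. In the ELF3 window a TATA box lay 34 to 29 bases before the start. Among all 35116 RefSeq windows of this length, 8.27% held a forkhead word, 10.7% a TATA box and 39.3% an ETS word (CCGGAA or AGGAAG, both strands). The palindromic estrogen response element, GGTCANNNTGACC, was in none of the windows of the 6 genes and in 0.0399% of all windows. At 14 of 35116 windows it is too rare for its absence here to be informative. GATA words (AGATAA or TGATAA, both strands) were in none of the windows of the 6 genes and in 14.6% of all windows.

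The 2 hormone receptors were the lowest of the 9 genes. ESR1 encodes estrogen receptor alpha and had 0.14, 0.10 and 0.11 TPM in shCTL and 0.16, 0.11 and 0.21 TPM in shRor1. The libraries of both conditions overlapped, and the exact two-sided permutation test gave p = 0.3, where 3 against 3 libraries cannot go below 0.1. Its mean over the 6 libraries was 0.138 TPM, and 45.3% of all identifiers in the table had a higher mean. ESR1 (ENSG00000091831.16) spans 151977826 to 152450754 on the plus strand of chromosome 6 of GRCh37.
PGR encodes the progesterone receptor and is the target gene most widely used to report estrogen receptor activity. The table lists PGR at 0.01 TPM in the second and the third shCTL library and at 0 in the other 4 libraries, so that no fold change is given. PGR (ENSG00000082175.10) lies on the minus strand of chromosome 11 from 100900355 to 101000544.

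GREB1, a cofactor and target of the estrogen receptor, was expressed at a low but steady level. It had 3.22, 2.91 and 3.42 TPM in shCTL and 3.40, 3.88 and 4.03 TPM in shRor1, which is a mean of 3.18 ± 0.257 against 3.77 ± 0.329 TPM (SD, n = 3 each). The second and the third shRor1 library lay above all controls, but the first did not. GREB1 thus had an estimated log2 fold change of 0.19 (SE 0.12, 95% interval -0.10 to 0.47, limma adjusted p = 0.984). GREB1 (ENSG00000196208.9) occupies 11622467 to 11782914 of chromosome 2, plus strand.

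FOXA1 and GATA3, the factors that act with the estrogen receptor on chromatin, were likewise low and steady. FOXA1 had 3.72, 4.74 and 4.21 TPM in shCTL and 4.43, 4.42 and 5.45 TPM in shRor1. The conditions overlapped, with only the third shRor1 library above all controls. This gave FOXA1 a log2 fold change of 0.14 (SE 0.13, 95% interval -0.17 to 0.46, limma adjusted p = 0.984). The exons of FOXA1 (ENSG00000129514.4, chromosome 14 from 38058757 to 38065264, minus strand) overlap those of TTC6 on the opposite strand, which had 0.95 to 1.68 TPM, and whether strand was used in counting is not given in the sources used here.
GATA3 had 3.83, 4.69 and 4.69 TPM in shCTL and 3.86, 4.12 and 3.97 TPM in shRor1. It was the only one of the 7 tested genes with a lower mean in shRor1, and its shRor1 libraries lay between the lowest and the other control libraries. For GATA3 the log2 fold change was -0.11 (SE 0.12, 95% interval -0.40 to 0.17, limma adjusted p = 0.984). GATA3 (ENSG00000107485.11) occupies 8087341 to 8117161 of chromosome 10, plus strand.

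SPDEF and ELF3, the ETS factors of secretory and luminal epithelium, differed strongly between libraries of the same condition. SPDEF had 1.11, 1.45 and 2.58 TPM in shCTL and 1.07, 2.55 and 5.02 TPM in shRor1. The third library was the highest in both conditions, and the lowest of all 6 values was in shRor1. The log2 fold change of SPDEF was 0.42 (SE 0.38, 95% interval -0.47 to 1.31, limma adjusted p = 0.984) and ranged from 0.04 without the third to 0.81 without the first shRor1 library. SPDEF (ENSG00000124664.6) occupies 34505579 to 34524110 of chromosome 6, minus strand.
ELF3 had 0.73, 0.81 and 2.63 TPM in shCTL and 0.88, 1.29 and 5.02 TPM in shRor1. Here again the third library of each condition stood above the other two, by 5.71-fold from lowest to highest within shRor1. For ELF3 the log2 fold change was 0.40 (SE 0.47, 95% interval -0.70 to 1.49, limma adjusted p = 0.984) and turned to -0.12 without the third shRor1 library. ELF3 (ENSG00000163435.11, chromosome 1 from 201977073 to 201986311, plus strand) shares exon sequence with the antisense gene ELF3-AS1, which had 0.44 to 1.44 TPM and was also highest in the third library of each condition.

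The trefoil genes had the highest means of the 9 and the widest spread. TFF1 had 2.17, 6.14 and 2.91 TPM in shCTL and 2.05, 15.26 and 3.00 TPM in shRor1. In each condition the second library was the high one, and the other 4 libraries lay between 2.05 and 3.00 TPM. The mean was 3.74 ± 2.11 TPM in shCTL and 6.77 ± 7.37 TPM in shRor1 (SD, n = 3 each; exact two-sided permutation test, p = 0.8). For TFF1 the log2 fold change was 0.39 (SE 0.61, 95% interval -1.03 to 1.81, limma adjusted p = 0.984), and it turned to -0.35 when the second shRor1 library was left out.
TFF3 had 1.54, 2.64 and 5.16 TPM in shCTL and 1.72, 7.50 and 10.99 TPM in shRor1. The second and the third shRor1 library lay above all controls, whereas the first lay between the lowest and the middle control. The mean of 3.11 ± 1.86 TPM in shCTL stood against 6.74 ± 4.68 TPM in shRor1 (SD, n = 3 each; exact two-sided permutation test, p = 0.3). The log2 fold change of TFF3 was the largest of the 7 tested genes, 0.76 (SE 0.55, 95% interval -0.53 to 2.05, limma adjusted p = 0.984), and 0.32 without the third shRor1 library and 1.39 without the first.

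**Figure D1:**
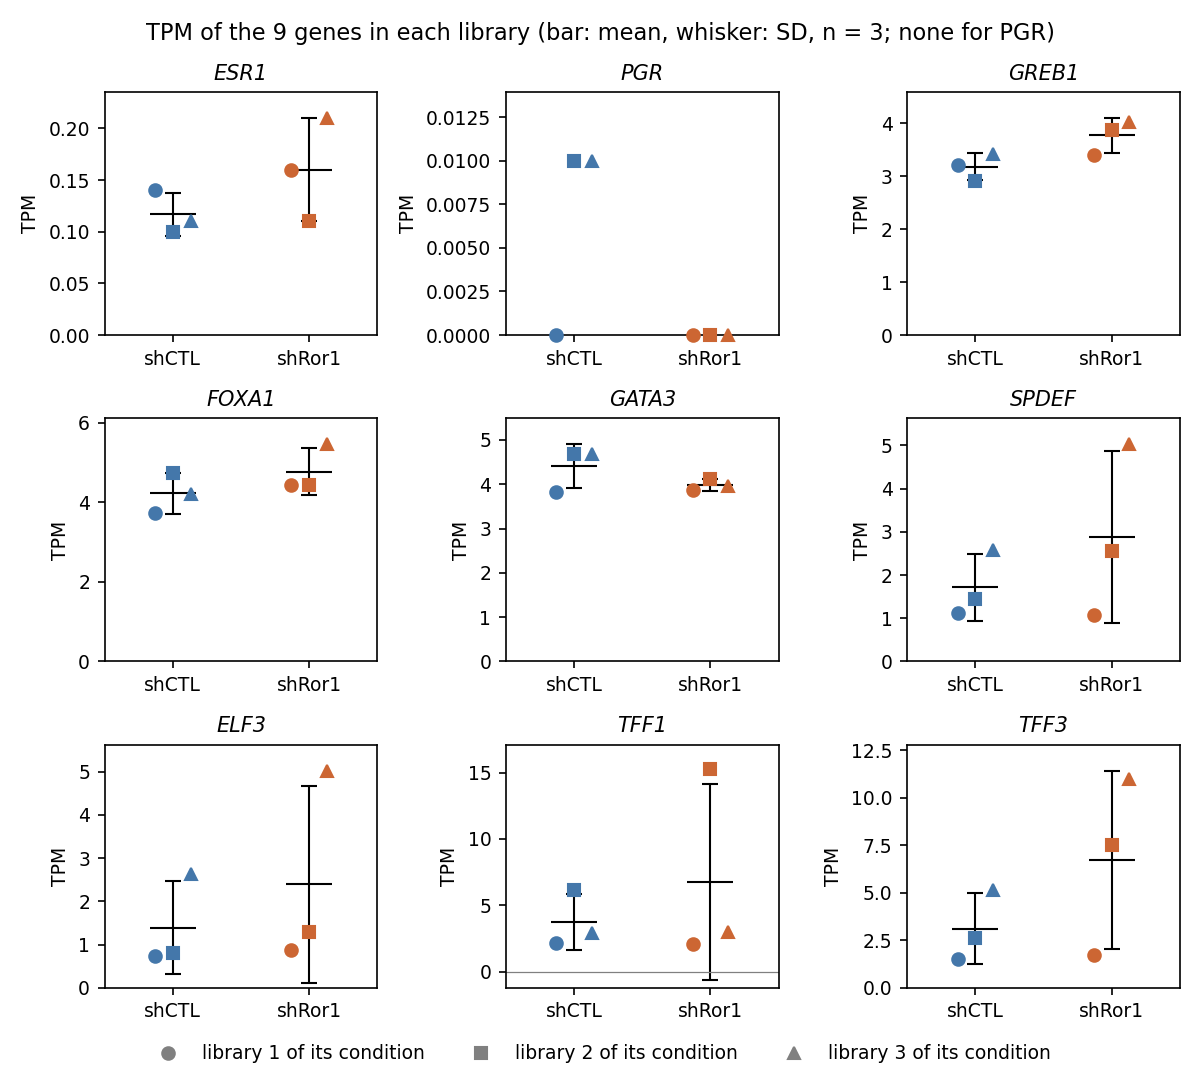
TPM of the 9 luminal genes in the 3 shCTL (blue) and 3 shRor1 (orange) libraries, each panel with its own vertical axis. Points are single libraries, with a symbol for each position in the deposited table, horizontal bars are means and whiskers the SD (n = 3; not drawn for PGR). ESR1 stayed at or below 0.21 TPM and PGR at or below 0.01 TPM, and in no panel did the conditions separate.

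In none of the 9 luminal genes did the libraries separate by condition. Of the 7 tested genes, 0 had an adjusted p below 0.05 in limma, as for 0.0% of all 16554 tested genes. At an unadjusted p below 0.05 there were 0 of 7 in either direction, where 2.31% of all tested genes were higher and 0.544% lower in shRor1. Leaving out the first shRor1 library brought TFF3 and SPDEF below this unadjusted limit (2 of 7, both higher, where 7.74% of all tested genes then were), and their adjusted p stayed above 0.05. For 0 of 7 did the 3 libraries of one condition lie beyond those of the other, against 6.48% of all tested genes higher and 1.3% lower. The estimates themselves were positive for 6 of the 7, with a median log2 fold change of 0.39 beside 0.05 over all tested genes, of which 11090 of 16554 had a positive estimate. The intervals of TFF1, TFF3, SPDEF and ELF3 contained both 0 and 1 on the log2 scale, whereas those of FOXA1, GATA3 and GREB1 stayed within 0.47 on either side of 0.

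**Figure D2:**
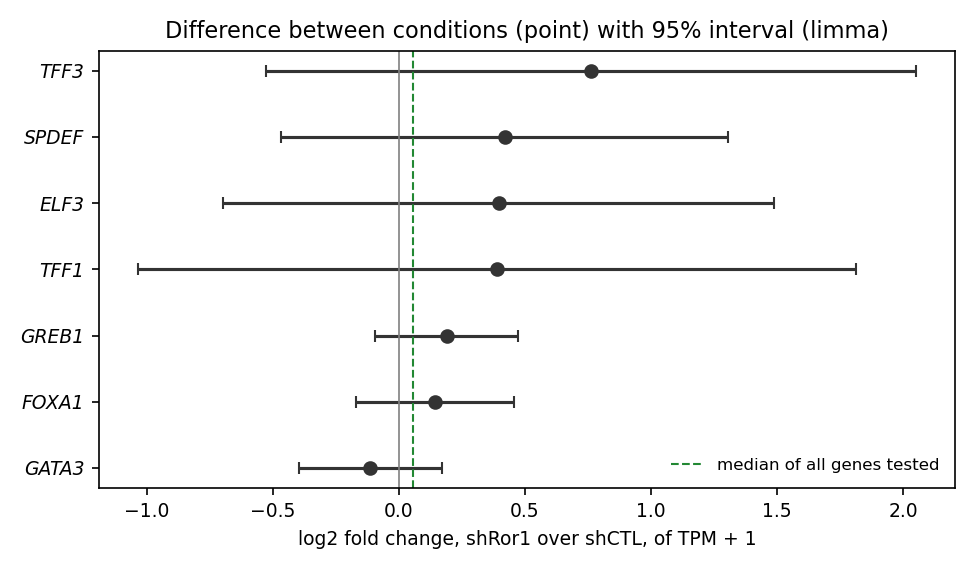
Log2 fold change of shRor1 over shCTL for the 7 tested luminal genes, on the log2(TPM + 1) scale (points), with the 95% interval from limma (bars). Each interval contains 0, and the dashed line marks the median of all tested genes, 0.05.

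By their mean over the 6 libraries the 9 genes followed the order TFF1 (5.26 TPM), TFF3 (4.93 TPM), FOXA1 (4.50 TPM), GATA3 (4.19 TPM), GREB1 (3.48 TPM), SPDEF (2.30 TPM), ELF3 (1.89 TPM), ESR1 (0.138 TPM) and PGR. Each pair of neighbours from TFF1 to ELF3 overlapped in their library values. The step from ELF3 to ESR1 was the first without overlap, and PGR lay below ESR1 in all 6 libraries. The leading place of TFF1 rested on the second library of each condition, since its median over the libraries, 2.96 TPM, was below the medians of FOXA1 (4.43 TPM) and GATA3 (4.05 TPM). From 19.1% (TFF1) to 24.5% (ELF3) of all identifiers had a higher mean than these 7 genes.

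The spread between libraries divided the tested genes. The SD between libraries of the same condition on the log2(TPM + 1) scale was 1.01 for TFF1, 0.91 for TFF3, 0.76 for ELF3 and 0.61 for SPDEF. It exceeded that of 98.9%, 98.7%, 97.9% and 95.8% of the tested genes with a mean within 2-fold of the gene, in the same order. FOXA1 (0.14), GATA3 (0.10) and GREB1 (0.10) were on the other side, with a spread above that of only 29.9%, 12.3% and 9.84% of genes at their level. Of the total sum of squares of the 6 values, the difference between conditions made up 5.23% for TFF1, 9.17% for ELF3, 15.0% for SPDEF and 20.7% for TFF3, and 59.5% for GREB1, the highest of the 7.

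**Figure D3:**
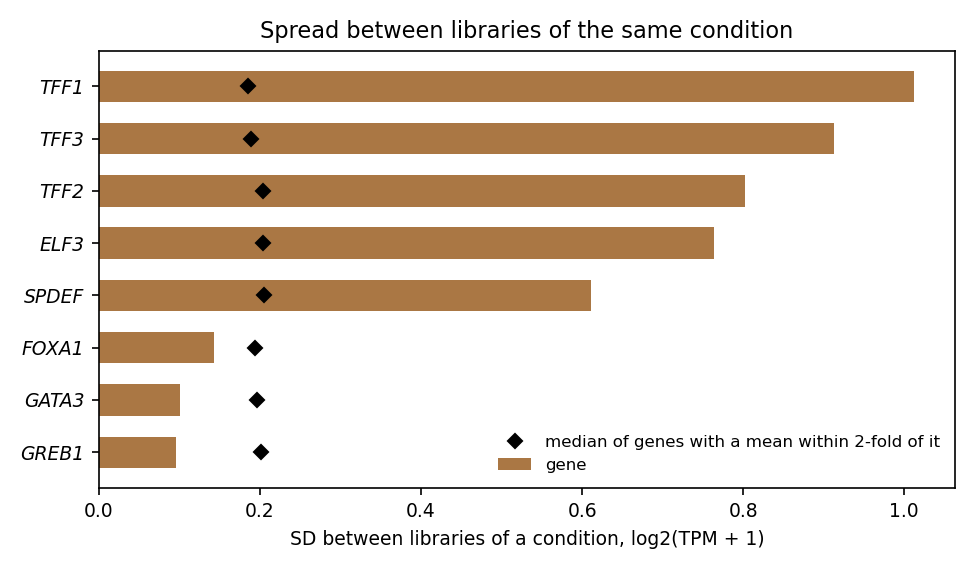
SD between libraries of the same condition on the log2(TPM + 1) scale for the 7 tested luminal genes and TFF2 (bars), with the median of all tested genes whose mean lies within 2-fold of the gene (diamonds). The trefoil and ETS genes extend from 0.61 to 1.01 beyond medians near 0.2, and FOXA1, GATA3 and GREB1 stay below theirs.

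The high libraries were largely shared. TFF3, SPDEF and ELF3 were each highest in the third shRor1 library, and FOXA1 and GREB1 as well, so that 5 of the 7 tested genes peaked there, where 35.1% of all tested genes did. Across the 6 libraries, Pearson's r of log2(TPM + 1) was 0.97 between TFF3 and SPDEF (Spearman's rho 0.89, n = 6 libraries), 0.94 between SPDEF and ELF3 (rho 0.83) and 0.84 between TFF3 and ELF3 (rho 0.89). Without the 2 libraries farthest from the median of the first gene, r over the remaining 4 was 0.96, 0.83 and 0.59, so that the relation of TFF3 to ELF3 rested in part on those libraries. TFF1 followed another order, with r = 0.43 to TFF3, 0.20 to SPDEF and -0.13 to ELF3 (rho 0.66, 0.54 and 0.26). The 2 libraries farthest from the median of TFF1 were those in which it was high. Over the other 4, in which TFF1 varied only from 2.05 to 3.00 TPM, r was 0.94, 0.93 and 0.94. These correlations describe 6 libraries of 2 conditions, and all genes of a library share its composition and depth.
Many other genes had a similar course. Of 11144 other tested genes with a mean of at least 5 TPM (11143 for TFF1), 999 reached r of 0.9 with SPDEF, 1097 with ELF3 and 866 with TFF3. The numbers were 353 with GREB1, 217 with TFF1, 41 with FOXA1 and 8 with GATA3. Closest to SPDEF were DUSP6 (r = 0.9998, rho 1.00), a phosphatase that switches off ERK, SVIL (r = 0.9983, rho 0.89) and PBXIP1 (r = 0.9964, rho 1.00). These are the highest of 11144 correlations, each over only 6 libraries, so values near 1 are no evidence of a link. DUSP6 had 151.68, 167.22 and 223.2 TPM in shCTL and 148.94, 223.06 and 325.55 TPM in shRor1. Closest to TFF3 were TRIB2, WDR47 and TACC1, closest to ELF3 NAP1L4P1, ZG16B and NT5C2, and closest to TFF1 MTMR6, MSRB3 and DIPK2A (r from 0.99 to 1.00, n = 6 libraries). For the steadier genes they were GARNL3, RN7SL644P and GLB1L with FOXA1, PER1, AL357936.1 and ASF1B with GATA3, and AFDN, FAM172A and PHLDA1 with GREB1 (r from 0.94 to 1.00).

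Of the genes named with SPDEF in secretory cells, MUC5B had the same order of libraries as SPDEF and MUC5AC nearly the same. Others were hardly expressed, and SLC12A2, described below, followed a different order. The mucins MUC2 and MUC13, the goblet cell genes CLCA1, AGR3 and ERN2, and the factor FOXA3 were at most 0.29 TPM in any library, and CLCA1 was listed at 0 in all 6. MUC5AC, a gel-forming mucin, had 0.70, 2.68 and 6.42 TPM in shCTL and 0.87, 3.64 and 12.2 TPM in shRor1. MUC5B, the gel-forming mucin encoded beside it, had 0.45, 1.94 and 4.56 TPM in shCTL and 0.33, 3.21 and 15.59 TPM in shRor1. In both conditions the first library was lowest and the third highest, and r to SPDEF was 0.96 for MUC5AC and 0.98 for MUC5B (rho 0.94 and 1.00, n = 6 libraries; 0.90 and 0.94 without the 2 farthest libraries). Their log2 fold changes were 0.43 (SE 0.75) and 0.66 (SE 0.87), with adjusted p = 0.986 and 0.984 from limma. They ranged from -0.29 and -0.28 without the third shRor1 library to values above 1 without the first, with 1.54 for MUC5B. Apart from AGR2, CREB3L1 and SLC12A2, the secretory genes were chosen for naming after their values were seen.
AGR2, a disulfide isomerase that folds mucins, differed from the 9 genes in that its libraries did not overlap, with 4.75, 5.71 and 10.72 TPM in shCTL and 11.52, 12.45 and 23.17 TPM in shRor1. Its log2 fold change was 1.06 (SE 0.33, limma adjusted p = 0.984), and within each condition the third library was again the highest. The paper, which fitted read counts with edgeR, listed AGR2 among its few significantly differentially expressed genes between shCTL and shRor1. That fit could not be repeated from TPM. Of the secretory list around SPDEF, 13 of 14 genes were in the table and 6 were tested, all 6 with a positive estimate (median log2 fold change 0.29), as had 11090 of all 16554 tested genes. Of these 6 secretory genes, 1 (AGR2) had an unadjusted and 0 an adjusted p below 0.05 in limma. Among all tested genes, 2.31% were higher and 0.544% lower in shRor1 at that unadjusted limit. AGR2 was also the 1 of these 6 genes without overlap, beside 6.48% of all tested genes that were so and higher in shRor1. CREB3L1, a secretory pathway transcription factor, and SLC12A2, a chloride carrier, were the next most abundant, with means of 10.6 and 9.72 TPM. CREB3L1 was highest in the third library of each condition. SLC12A2 was not, with 9.82, 9.45 and 8.53 TPM in shCTL and 9.61, 10.59 and 10.33 TPM in shRor1. For AGR2, r to SPDEF was 0.82 but rho was 0.54.

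**Figure D4:**
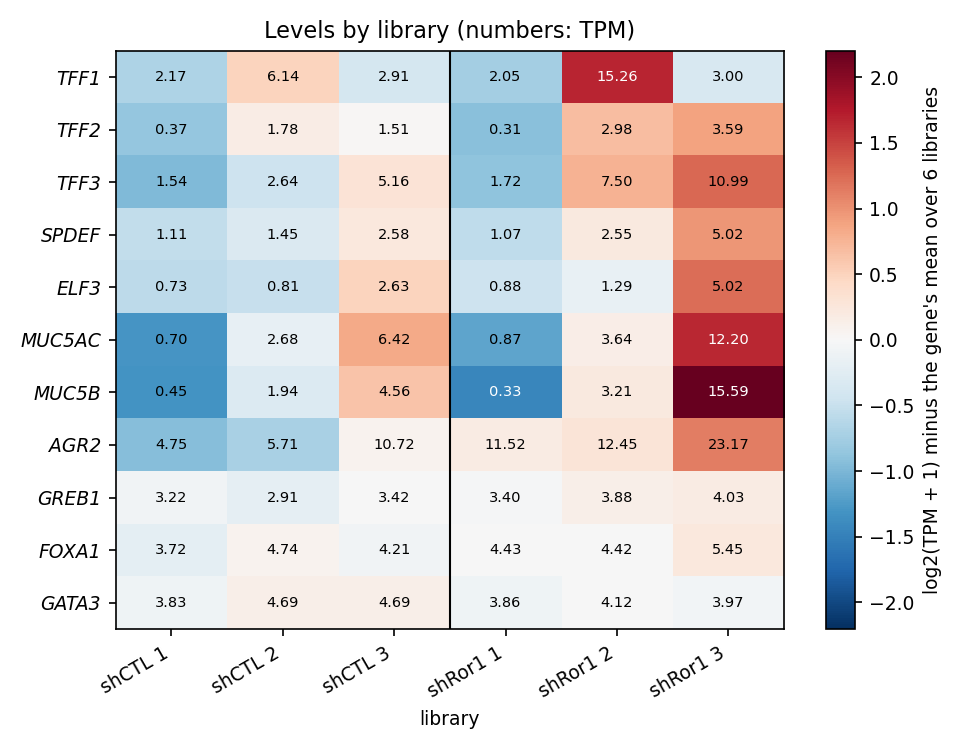
Level of luminal and secretory genes in each library. Colour gives log2(TPM + 1) minus the mean of the gene over the 6 libraries, and the number in each cell is the TPM. TFF3, SPDEF, ELF3 and both mucins were highest in the third library of each condition, TFF1 in the second, and FOXA1 and GATA3 stayed between 3.72 and 5.45 TPM.

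Because TPM was measured on whole cultures, more cells with luminal or secretory expression cannot be told apart from more RNA per cell. The third libraries of both conditions also had the most genes above 1 TPM (16597 in shCTL and 17033 in shRor1). They also held the most COL1A1 of their condition, with 13.87 and 11.15 TPM, and of the endothelial gene CDH5, with 1.47 and 1.56 TPM against 0.32 to 0.54 TPM in the other 4 libraries. Of the 12 markers of other cell types in the table, 4 were highest in the third library of both conditions, and the stromal gene DCN was lowest in the third shCTL library, with 0.76 TPM against 1.24 and 1.25 TPM. The part of these differences in the course of SPDEF, ELF3 and TFF3 was not tested.

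The 3 trefoil genes lie side by side on the minus strand of chromosome 21 of GRCh37, with TFF3 (ENSG00000160180.14) from 43731777 to 43735519, TFF2 from 43766466 to 43771106 and TFF1 (ENSG00000160182.2) from 43782391 to 43786644. TFF2, the remaining member of the family, had 0.37, 1.78 and 1.51 TPM in shCTL and 0.31, 2.98 and 3.59 TPM in shRor1. It was low in the first library of both conditions, as were TFF1 and TFF3, with an estimated log2 fold change of 0.44 (SE 0.49, limma adjusted p = 0.984) that ranged from 0.11 without the third to 1.01 without the first shRor1 library. The next gene on the side of TFF1, the serine protease TMPRSS3, had 1.71, 1.78 and 3.87 TPM in shCTL and 1.65, 1.94 and 6.74 TPM in shRor1, and thus peaked in the third libraries rather than in the second as TFF1 did. ABCG1, a sterol exporter on the side of TFF3, had 1.24, 1.24 and 1.97 TPM in shCTL and 1.17, 1.82 and 2.78 TPM in shRor1. UBASH3A, a regulator of T-cell signaling beyond TMPRSS3, was at most 0.03 TPM.

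Several relatives of the luminal genes were more abundant than the luminal genes themselves. Those named here beyond NR3C1, ESRRA, ELF4 and FOXA2 were chosen after their values were seen. Among nuclear receptors, the glucocorticoid receptor NR3C1 (mean 39.4 TPM) and the orphan receptor ESRRA (39.3 TPM) stood far above the estrogen receptor beta gene ESR2 (1.38 TPM) and ESR1 (0.138 TPM). ESR2 exceeded ESR1 in each library. FOXA2 had 17.33 to 26.5 TPM and was above FOXA1, which did not exceed 5.45 TPM, in each library, while FOXA3 stayed at or below 0.07 TPM. GATA2 (6.89 to 8.75 TPM) and GATA6 (6.87 to 8.30 TPM) were both above GATA3 throughout, and GATA4 and GATA5 were listed at 0. The epithelial ETS genes ELF5 and EHF stayed at or below 0.27 TPM, whereas the widely expressed ELF1, ELF2 and ELF4 had means of 18.3, 18.2 and 24.9 TPM.
Of 21 relatives 13 were tested, 9 with a positive and 4 with a negative estimate (median log2 fold change 0.10), and 0 passed an unadjusted or adjusted p of 0.05. Of all 16554 tested genes, 11090 had a positive estimate, and 2.31% were higher and 0.544% lower in shRor1 at that unadjusted limit. Without overlap of the conditions was 1 of the 13, NR3C1, where 6.48% of all tested genes were so and higher in shRor1. It had 37.28 to 38.88 TPM in shCTL and 40.08 to 41.49 TPM in shRor1 (log2 fold change 0.11, SE 0.07, limma adjusted p = 0.984). For FOXA2 the estimate was 0.23 (SE 0.14) on the log2 scale.

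Coregulators of the estrogen receptor, most of which serve many other factors too, were expressed although the receptor was near 0. All 18 coregulators on the list were tested, 12 with a positive and 6 with a negative estimate (median log2 fold change 0.05), and 0 passed an unadjusted or adjusted p of 0.05. Beside this, 11090 of all 16554 tested genes had a positive estimate, and 2.31% were higher and 0.544% lower at that unadjusted limit. The repressor PHB2 had a mean of 355.6 TPM, the deacetylase HDAC1 188.3 TPM and the scaffold attachment factor SAFB 121.5 TPM. Without overlap of the conditions was 1 of the 18, beside the same 6.48% of all tested genes. This was TFAP2C, a factor of luminal progenitors, with 8.07 to 9.17 TPM in shCTL and 9.61 to 10.3 TPM in shRor1 (log2 fold change 0.17, SE 0.10, limma adjusted p = 0.984). For the methyltransferase CARM1 the estimate was -0.16 (SE 0.10) on the log2 scale.
Of 26 further estrogen response genes in the table, 20 were tested, 12 with a positive and 8 with a negative estimate (median log2 fold change 0.05), and again 0 passed an unadjusted or adjusted p of 0.05. The shares over all tested genes were, as above, 11090 of 16554 with a positive estimate, 2.31% higher and 0.544% lower. Many of the response genes are also used outside estrogen signaling, and the most abundant were among these. IGFBP4, a binding protein of insulin-like growth factors, had a mean of 1060 TPM, the cell cycle gene CCND1 227.3 TPM and the chaperone FKBP4 182 TPM. CA12, a carbonic anhydrase, had 19.24 to 19.69 TPM in shCTL and 18.82, 24.6 and 29.06 TPM in shRor1 (log2 fold change 0.27, SE 0.15, limma adjusted p = 0.984), and for XBP1, a factor of secretory cells, the estimate was 0.13 (SE 0.08).

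Markers of luminal epithelium were uneven in these cells, with the simple keratins KRT8, KRT18 and KRT7 at means of 505.6, 487 and 250.4 TPM and 10 of the 27 genes below 1 TPM in every library. Of the 27, 14 were tested, 8 with a positive and 6 with a negative estimate (median log2 fold change 0.08). Of the 14, 1 (AGR2) had an unadjusted and 0 an adjusted limma p below 0.05. Among all tested genes, 2.31% were higher and 0.544% lower in shRor1 at that unadjusted limit. CDH1, which encodes E-cadherin, had 1.01, 0.80 and 1.22 TPM in shCTL and 1.36, 1.41 and 1.47 TPM in shRor1, without overlap (log2 fold change 0.27, SE 0.14, limma adjusted p = 0.984). CDH1 and AGR2 were the 2 of these 14 genes without overlap, beside 6.48% of all tested genes that were so and higher in shRor1. Of 20 basal and mesenchymal markers 13 were tested, 9 with a positive and 4 with a negative estimate (median log2 fold change 0.06), and 0 passed an unadjusted or adjusted p of 0.05. For both lists, the share of all tested genes with a positive estimate was 11090 of 16554. Here too 1 of the 13 was without overlap and higher in shRor1, ZEB2, named because of its values. ZEB2 had 8.78 to 9.38 TPM in shCTL and 9.43 to 9.71 TPM in shRor1. TP63, below the filter and also named because of its values, was without overlap in the other direction. It had 0.70 to 0.74 TPM in shCTL and 0.47 to 0.57 TPM in shRor1, where 1.3% of all tested genes were so and lower. After VIM, the most abundant were CAV1 (446.8 TPM) and CD44 (438.8 TPM), and for ZEB1, a repressor of epithelial genes, the estimate was 0.08 (SE 0.08). Of the markers of other cell types 3 were tested, with a median log2 fold change of -0.04, and 0 passed an unadjusted or adjusted p of 0.05. These were COL1A1 (log2 fold change -0.06), PDGFRB (-0.04) and DCN (0.14).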

How the data were processed

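The authors mapped single reads of stranded RNA libraries (prepared from total RNA in the protocol, polyA RNA in the labels) to GRCh37 with STAR and the Ensembl 73 annotation, and estimated gene abundances with RSEM (version 1.2.5 in the submitters' notes). The deposited table, although named for expected counts, holds TPM with 2 decimals for 57445 identifiers and 6 libraries, each summing to about 1000000. All 6 value columns were used. TPM keeps no depth, and therefore no count model was used.

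From these values, genes reaching 1 TPM in 3 or more libraries entered a fit of log2(TPM + 1) on condition alone in limma 3.58.1 (R 4.3.3) with a mean-variance trend. Benjamini-Hochberg adjustment ran over all 16554 genes, with a threshold of 0.05. The pseudocount of 1 understates changes of low genes. Mean TPM of a gene was also compared by exact two-sided permutation. The fit was also run on simulated data with independent noise for each gene, as a check of the code. Those data lack the course that many genes share across these libraries, so they do not measure false calls here.

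Symbols came from a gene name table that matched 55022 identifiers, coordinates from GENCODE on GRCh37, and promoters from RefSeq on GRCh38.p14. Of the listed genes, PECAM1 and FCGBP were not matched and SLC9A3R1 is a second name of NHERF1. The 9 genes and the 8 gene lists were chosen with earlier results of these data known. Genes named are the 9, ROR1, from each list the 3 with the highest mean TPM and the 2 with the smallest p, for each tested luminal gene the 3 genes of at least 5 TPM with the highest Pearson correlation, and others marked as chosen after their values were seen, given for the neighbourhood of a gene, or as cell type markers. Alternatives were a pseudocount of 0.1, other filters, quantile normalization, median ratio scaling, no trend, array weights, sums over overlapping exons and each library left out in turn.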

Additional observations from a re-analysis of the deposited data

How the results depend on the processing

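No paired analysis was possible because no replicate number stands in the column headers. Over the 14 alternative fits, all 7 tested genes kept an adjusted p above 0.05, and 5 of them kept the sign of their log2 fold change. The exceptions were TFF1 (-0.35 without the second shRor1 library) and ELF3 (-0.12 without the third), and when single libraries were left out they ranged from -0.35 to 0.86 and from -0.12 to 0.74. The ranges over all alternatives were 0.32 to 1.39 for TFF3, 0.04 to 0.81 for SPDEF, 0.10 to 0.25 for GREB1, 0.04 to 0.21 for FOXA1 and -0.20 to -0.07 for GATA3. Calls at an adjusted p below 0.05 numbered 0 in 13 alternative fits and 0 to 1 when single libraries were left out, the 1 being the pseudogene RPL39P3 without the third shRor1 library. An unadjusted p below 0.05 was reached by 472 genes, 1363 without a filter and 1029 at 0.1 TPM, where more genes were tested, 859 with array weights and 278 to 1720 when single libraries were left out. Among the latter, 1720 (shRor1 library 1 out), 289 (shCTL library 1 out) and 278 (shCTL library 2 out) were more than 1.5 times from 472, as were the numbers without a filter, at 0.1 TPM and with array weights. The cause was not tested for the array weights and the left-out libraries. Of the 472 genes, 382 were higher and 90 lower in shRor1, against 200 and 171 after quantile normalization and 230 and 163 after median ratio scaling. The paper lists the mapped reads of each replicate, but the columns carry no replicate number and TPM holds no read counts. For genes near 1 TPM, such as ELF3 and SPDEF, how much of the spread is counting error was therefore not tested.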

Other observations

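The course of SPDEF, ELF3 and TFF3 across the libraries also appeared in genes of other lists. FN1, the matrix protein fibronectin and a mesenchymal marker, had 15.59, 20.84 and 43.88 TPM in shCTL and 17.02, 39.34 and 76.86 TPM in shRor1, again lowest in the first and highest in the third library of each condition (log2 fold change 0.60, SE 0.55, limma adjusted p = 0.984). IGFBP4 had 756.46, 879.87 and 1245.04 TPM in shCTL and 650.26, 1149.52 and 1676.57 TPM in shRor1. CLDN7, a tight junction protein of epithelium named here because of its values, had 6.64, 6.67 and 14.73 TPM in shCTL and 6.66, 6.57 and 18.07 TPM in shRor1, so that the third library of each condition stood alone. The mesenchymal marker ZEB1 stayed between 23.11 and 26.81 TPM and KRT18 between 456.78 and 502.91 TPM in the same libraries. The positions of the columns carry no label that ties a library of one condition to a library of the other.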
